A study of Homo sapiens with 12 samples.

Results

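HEK293T cells depleted of BRG1 were compared directly with HEK293T cells depleted of p300, on a pair of arrays of 1 slide. These are 2 of the 12 arrays of the series. HEK293T is a human embryonic kidney line. The labels describe the first sample as si BRG1 and the second as si P300. Each was transfected with 15 nM siRNA for 72 h and induced for 9 h with Wnt3A conditioned medium. Dose and times were thus shared, and the labels differ only in the target of the siRNA pool. Each sample was also its own culture and array. Cy3-labeled RNA of each sample was hybridized against universal human reference RNA in Cy5. Per the study's methods, each knockdown used a pool of pre-designed siRNAs. Loss of the target and an effect of its pool on other transcripts therefore cannot be told apart. With 1 array for each knockdown, the differences below could not be checked against replicates and carry no p-value. In bulk RNA, fewer cells of a kind and less RNA per cell cannot be told apart.

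BRG1, encoded by SMARCA4, is an ATPase of the SWI/SNF complexes, which slide and evict nucleosomes. p300, encoded by EP300, acetylates histones and other proteins and is recruited to enhancers by many transcription factors. Both proteins bind β-catenin and have been described as coactivators of Wnt target genes, and the question put by the comparison is where the consequences of losing them diverge.

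The value of a feature is the log2 ratio of sample to reference, and the difference is the value after BRG1 depletion minus the value after p300 depletion, so that no si-control array enters it. Of 43376 features that are not control spots, 27466 were compared, namely those without an outlier flag and with a signal above 2-fold the local background in at least 1 channel of each array. A feature was counted as higher or lower when the difference passed 1.5-fold. The error given as ± is the scanner program's own error combined over both arrays, which leaves out the spread between cultures. The sample channel was well above background for 71.0% and 69.9% of the features, no feature was saturated (0 on each), and for the 239 probes with 5 or more usable spots the difference had a median SD of 0.06 between spots. The median SD between the spots of a probe was 0.047 on the BRG1 array and 0.033 on the p300 array, and 0.032 to 0.042 on the other 4 HEK293T arrays.

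The line label was checked against marker genes. Of 10 markers of HEK293T cells on the array, among them the neurofilament genes NEFL and NEFM, 9 had a stronger sample signal in this pair than in the BRG1 and p300 arrays of Ls174T colorectal cancer cells, and the median difference over the 10 was 4.74 on the log2 scale. The labels of the Ls174T arrays name no Wnt3A induction. Per the paper, a β-catenin mutation keeps the Wnt pathway active in that line. For the 14 colorectal markers the median was -6.23 on that scale and the highest value -1.01, although 7 of them were well above background on both HEK293T arrays. None of the 7 colorectal markers that could be compared passed 1.5-fold between the BRG1 and p300 arrays (0 higher, 0 lower), but with normexp background correction and loess normalization 5 were higher and 1 lower.

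The 2 siRNA targets were each lowest on their own array. The mean log2 ratio of the 3 SMARCA4 probes was 0.87 in si-control cells with control medium, 1.05 in si-control cells with Wnt3A, 1.07 after MLLT10 depletion, 1.14 with DOT1L depleted, 0.99 with p300 depleted, and -2.92 with BRG1 depleted. The 3 probes differed between the BRG1 and p300 arrays by -3.94, -3.92, and -3.87, which corresponds to 14.6- to 15.4-fold. EP300 is represented by 2 probes. The brighter one read 0.84, 0.48, 0.25, and 0.26 in the 4 cultures with neither knockdown, 0.86 after BRG1 depletion, and -1.87 after p300 depletion, a difference of 2.73 ± 0.35. The other EP300 probe differed by 3.70 ± 0.45, but only 1 of its 9 usable spots was well above background on the p300 array. SMARCA2, the alternative ATPase of the complex, differed by 0.51 and 0.07 with its 2 probes, both below 1.5-fold.

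**Figure D1:**
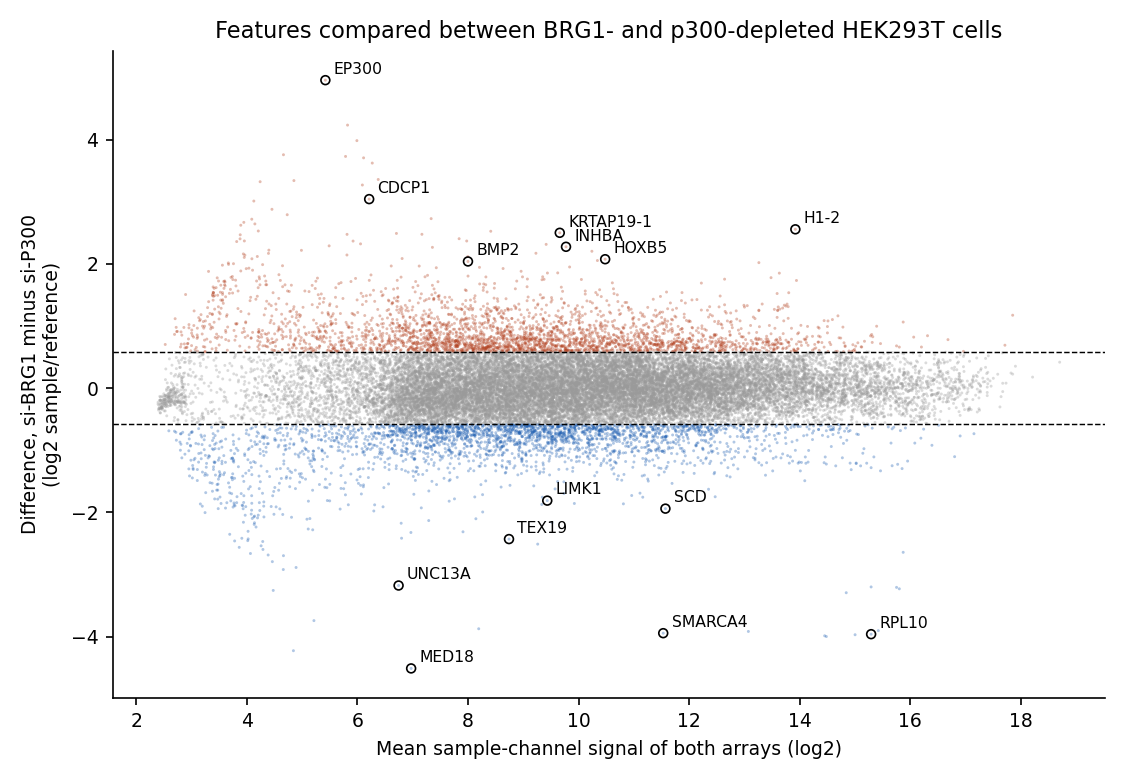
Difference between the BRG1 and p300 arrays (y axis, log2) against the mean log2 signal of the sample channel (x axis) for the 27466 features, with red and blue points past 1.5-fold (dashed lines) and gray points within it. Circles mark the most extreme feature of 14 named genes. SMARCA4 and RPL10 lie near -4 among bright features, and the differences spread most at low signal.

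The arrays differed at many genes. Of the 27466 features, 2888 (10.5%) were higher and 2644 (9.63%) were lower after BRG1 than after p300 depletion. Past 2-fold, 814 were higher and 739 were lower. Of the called features, 2029 higher and 1809 lower ones also exceeded 2 program errors. The median difference over all features was -0.003. Another pair of knockdown arrays of the same line on a shared slide, those after MLLT10 and DOT1L depletion, served as a yardstick, and 1.97% of 28396 features were higher and 1.68% lower between them. MLLT10 and DOT1L proteins bind each other.

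The order of all 6 HEK293T arrays shows which array stood apart. With 1 array for each condition, a knockdown cannot be told apart from its array. The arrays without either knockdown lay on other slides. Of 26792 features measured on all 6, the BRG1 array held the lowest value for 30.0% and the highest for 29.9%, and the p300 array for 18.2% and 18.6%. Among the 2572 lower features with a value on all arrays, the BRG1 array was the lowest of 6 for 89.6% and the p300 array the highest for 42.4%. Among the 2778 higher ones, the BRG1 array was the highest for 77.6% and the p300 array the lowest for 56.6%. The choice of features by the difference itself raises these shares. The median of the lower features lay 0.69 below the si-control Wnt3A array after BRG1 depletion (median -0.69) and 0.16 above it after p300 depletion. For the higher features the medians were 0.57 and -0.29. Both values subtract the same si-control array, which was on another slide.

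By gene, 13214 genes with a symbol were compared, with the probes of a gene averaged. Of these, 8.26% were higher and 10.0% were lower past 1.5-fold. For the 12572 genes with a probe whose sample signal was well above background on each array the shares were 7.71% and 8.92%. Of 4104 genes with 2 or more such probes, 1206 had at least 1 probe past 1.5-fold. Every probe passed it in the same direction for 293 of these, and probes passed it in opposite directions for 11.

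RPL10, which encodes a protein of the large ribosomal subunit, stood beside SMARCA4 at the lower end. Its 4 probes differed by -3.96, -3.90, -3.23, and -3.21. The most extreme of them read 0.31, 0.17, 0.04, and 0.18 on the si-control, MLLT10, and DOT1L arrays, 0.16 after p300 depletion, and -3.80 after BRG1 depletion. The BRG1 array was thus the only 1 of 6 on which RPL10 was low. Whether the siRNA pool acted on RPL10 transcripts directly was not tested. The probe for RPL10L, a near-identical retrocopy of RPL10, differed by -4.00 ± 0.45, and whether these probes tell transcripts of the 2 genes apart was not tested. The remaining 84 ribosomal protein genes, a family looked at after RPL10 was seen, had a median difference of -0.001. Of them 4 were lower and 2 higher past 1.5-fold, against 10.0% and 8.26% of all genes. The lowest of the 84 were RPS20, at -2.37 after BRG1 and -1.07 after p300 depletion, and RPL22L1 (-1.11). In Ls174T cells, for which the study's methods name the same siRNA pools, the 4 RPL10 probes differed by -1.95 to -1.80 in the same comparison. SMARCA4 differed there by -2.86 to -2.44, on another slide. Relative to the si-control array of that line, the probe described first was at -0.07 after p300 depletion, and the others lay between -1.86 and -1.80 after BRG1 depletion.

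MED18, a subunit of the Mediator complex that joins transcription factors to RNA polymerase II, was low on the BRG1 array alone. Its probe read 1.38, 1.45, 1.65, and 1.48 on the si-control, MLLT10, and DOT1L arrays, 1.59 after p300 depletion, and -2.92 after BRG1 depletion, a difference of -4.51 ± 0.44. The sample signal after BRG1 depletion was not well above background, so the size of this difference is uncertain. In Ls174T cells the MED18 difference was -0.34. For probes well above background on 1 of the arrays only, a bound was set from the sample channels, made comparable by Aquantile normalization, as the bright signal against the weakest signal well above background on the dim array, or against the dim probe itself where that is higher. On this scale MED18 came to 27.6-fold, which exceeds what the ratio to the reference gives, and it is therefore not read as a bound. The bound lay within the ratio difference for 4 of the 10 genes with the largest bounds. By this measure NSUN7 was at least 8.94-fold lower after BRG1 than after p300 depletion. The inflammatory caspase gene CASP1 was at least 5.17-fold lower, and the T cell receptor component gene CD3D at least 4.78-fold. Their ratio differences were -3.74 ± 0.56 for NSUN7, -4.23 ± 0.88 for CASP1, and -2.89 ± 1.04 for CD3D. For NSUN7 and CASP1 the p300 array was the high one. NSUN7 read -0.41 after p300 depletion and -4.15 to -2.71 on the other arrays, and CASP1 -3.63 and -7.86 to -6.24. The second probe of NIBAN1 was at least 4.70-fold higher by this measure, with a ratio difference of 2.47 ± 0.42. With normexp and loess its difference was 1.17 on the log2 scale, and 1.02 with outlying backgrounds replaced. These bounds leave out the program error and hold only on the scale they were set on. For the others only the ratio difference is given, which was -1.59 ± 1.02 for the fetal serum protein gene AFP, 3.04 ± 0.50 for CDCP1, 2.37 ± 0.42 for TCERG1L, 1.68 ± 0.48 for MALAT1, and 1.76 ± 0.40 for FGF13.

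Cholesterol synthesis genes were the list lowest after BRG1 relative to p300 depletion. Sterol regulatory element binding proteins (SREBPs) are transcription factors that switch on the enzymes of this pathway and the LDL receptor when membrane sterol is scarce. All 27 genes of the list were measured. Of these, 17 were lower and none (0) higher past 1.5-fold, against 10.0% and 8.26% of all genes, and the median was -0.68, against -0.03 for all genes. INSIG1, which retains the SREBP machinery in the endoplasmic reticulum and is itself an SREBP target, read -0.10 with control medium, 0.26 with Wnt3A, 0.55 and 0.32 after MLLT10 and DOT1L depletion, 0.58 after p300 depletion, and -1.16 after BRG1 depletion. Its difference was -1.75 ± 0.31, or 3.36-fold. The BRG1 array was lower than all 5 others.

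The enzymes followed. MSMO1, a sterol methyl oxidase, differed by -1.50 ± 0.31, and IDI1, an isomerase of isoprenoid units, by -1.36 ± 0.30. SCD, which desaturates stearoyl-CoA, had 3 probes at -1.94, -1.66, and -1.01. HMGCS1, which makes HMG-CoA, differed by -0.95 ± 0.32, and SQLE, an epoxidase, by -0.68 ± 0.31. Over the list the BRG1 array was the lowest of the 6 arrays for 22 of 27 genes, and the p300 array the highest for 17. Against the si-control Wnt3A array the median was -0.54 after BRG1 and 0.13 after p300 depletion. With the sample channel alone 18 genes were lower, and with normexp background correction and loess normalization 10 were lower and 1 higher. In Ls174T cells 3 of the 27 genes were lower and 0 higher, with a median of -0.22.

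Histone genes were the list with the highest median. Of 24 genes, 21 were measured, 14 were higher and 0 lower past 1.5-fold, against 8.26% and 10.0% of all genes, and the median was 0.91. Linker histone gene H1-2 led every gene with a probe well above background on both arrays, EP300 apart. Its log2 ratio was -3.98 and -4.15 in the si-control cultures, -3.92 and -3.68 after MLLT10 and DOT1L depletion, -3.67 after p300 depletion, and -1.12 after BRG1 depletion. The difference was 2.56 ± 0.46, or 5.88-fold, and the BRG1 array was the high one. Among the core histone genes, H2BC12 differed by 1.53 ± 0.31, H2BC9 by 1.26 ± 0.33, and H2BC7 by 1.25 ± 0.33. H2BC12 read between -1.75 and -1.31 on the other 5 arrays and 0.22 after BRG1 depletion. The H2B genes have near-identical coding sequences, so their probes may share transcripts and are not independent. H2BC4, at 1.26 ± 0.33, differed by only 0.12 with the sample channel alone.

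The 7 histone genes within 1.5-fold included the variants H2AZ1 (-0.18), H3-3A (0.12), MACROH2A1 (0.02), and MACROH2A2 (-0.39), which are made throughout the cell cycle from polyadenylated transcripts. H2AX (0.74) and H3-3B (0.69) were among those past 1.5-fold. The counts were 12 to 14 higher and 0 lower with the sample channel alone, with normexp and loess, and with background outliers replaced. Against the si-control Wnt3A array 11 of the 21 genes were past 1.5-fold higher after BRG1 depletion and 0 after p300 depletion, with 1 lower after each. In Ls174T cells the median was 0.31, with 2 genes higher and 1 lower, and H1-2 differed by 0.72. Genes of mitosis had 2 of 25 higher and 0 lower (median 0.28), and genes of DNA replication 0 of 29 higher and 3 lower (median -0.10). Of all genes, 8.26% were higher and 10.0% lower.

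Promoter stretches of 4 histone and 2 cholesterol genes are printed because the members of each list lay mostly on 1 side. They are the 120 bases before the start of transcription, 5′ to 3′ on the strand of the gene, from RefSeq on build GRCh38.p14. Capitals mark the octamer ATTTGCAT, known as a binding sequence of OCT1 in H2B promoters, in the first 3, and the CCAAT box, the binding sequence of NF-Y, on either strand, in the others.
H2BC12 (chr6:27146859-27146978, minus strand): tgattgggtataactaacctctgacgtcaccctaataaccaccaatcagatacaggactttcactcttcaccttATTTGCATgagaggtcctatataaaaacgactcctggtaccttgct
H2BC9 (chr6:26251494-26251613, plus strand): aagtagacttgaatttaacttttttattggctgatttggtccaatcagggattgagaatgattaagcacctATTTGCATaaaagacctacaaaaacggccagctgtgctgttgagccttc
H2BC7 (chr6:26199396-26199515, plus strand): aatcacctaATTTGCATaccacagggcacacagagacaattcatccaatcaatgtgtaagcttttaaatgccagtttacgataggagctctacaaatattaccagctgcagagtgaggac
H1-2 (chr6:26056471-26056590, minus strand): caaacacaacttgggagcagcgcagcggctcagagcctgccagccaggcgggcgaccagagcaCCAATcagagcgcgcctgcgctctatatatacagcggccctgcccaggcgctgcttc
MSMO1 (chr4:165327549-165327668, plus strand): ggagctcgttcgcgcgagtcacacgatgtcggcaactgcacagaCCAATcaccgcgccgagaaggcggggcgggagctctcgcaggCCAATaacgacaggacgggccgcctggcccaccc
HMGCS1 (chr5:43313413-43313532, minus strand): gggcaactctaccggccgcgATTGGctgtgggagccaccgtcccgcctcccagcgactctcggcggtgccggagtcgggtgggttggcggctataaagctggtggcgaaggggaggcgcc

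Both motifs were searched on both strands in windows from 250 bases before to 50 bases after each start. So was 1 more, TCACNCCAC, a sequence of the sterol regulatory element type. The octamer was in a window of 8 of 9 measured H2B genes, all but H2BC5, and in 9 of 20 measured histone genes with a promoter in the table, against 2.19% of 27305 genes. A CCAAT box was in all 9 H2B genes and in 17 of the 20, against 39.7% of all genes. H2BC5 differed by 0.95, near the other H2B genes, and H1-2, with the largest difference, holds no octamer. For the cholesterol list only 19 of 27 genes had a promoter in the table, so no share is read for it. Of the 19, 17 held a CCAAT box, and 1 held TCACNCCAC, which was in 1.39% of all genes. A match describes the letters only.

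**Figure D2:**
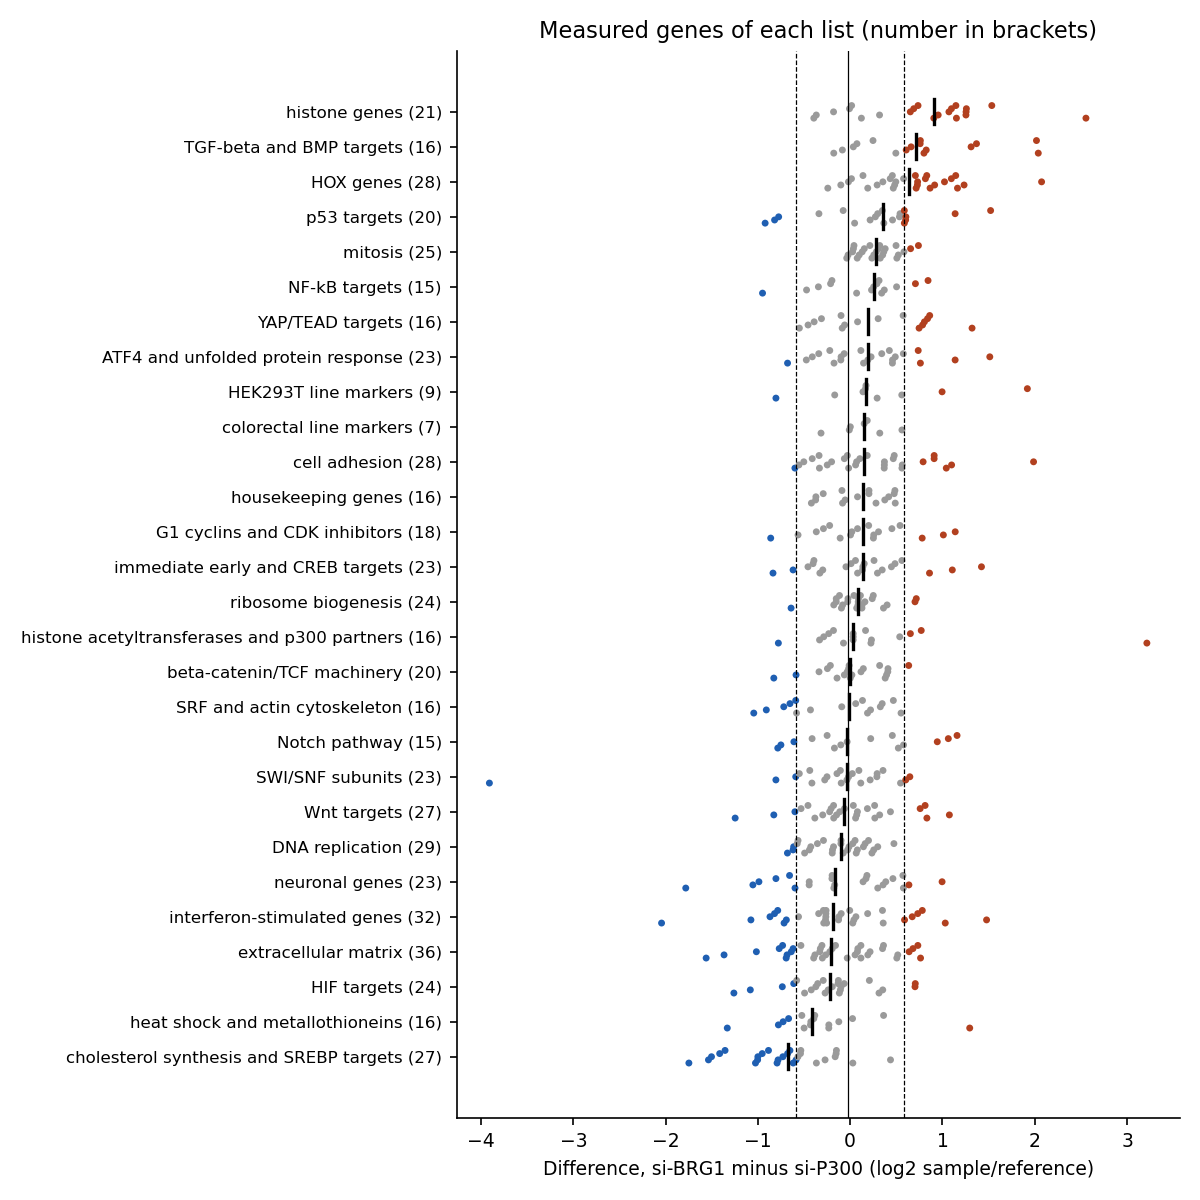
Difference between the BRG1 and p300 arrays (x axis, log2) of every measured gene in 28 gene lists, ordered by their median (black bar), with the number of measured genes in brackets. Points are genes, red or blue past 1.5-fold (dashed lines). The cholesterol list lies lowest (median -0.68) and the histone list highest (median 0.91), and the 16 housekeeping genes stay within 1.5-fold.

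Many targets of TGF-β and BMP signaling were higher after BRG1 than after p300 depletion. The ligands act through SMAD proteins, which recruit p300, and their targets include feedback inhibitors of the same pathway. Of 16 measured genes 10 were higher and 0 lower past 1.5-fold, against 8.26% and 10.0% of all genes, with a median of 0.71. The ligand gene BMP2 read -1.20 and -1.11 in the si-control cultures, -0.79 and -0.66 after MLLT10 and DOT1L depletion, -0.08 with BRG1 depleted, and -2.12 with p300 depleted. Its difference was 2.04 ± 0.35, or 4.11-fold, and both knockdown arrays lay outside the range of the other 4, in opposite directions. BAMBI, a decoy receptor, differed by 2.02 ± 0.47, where the BRG1 array was high (-1.58) and the other 5 lay between -3.60 and -3.11.

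The ID genes encode inhibitors of helix-loop-helix factors and are classic BMP targets. ID1 differed by 1.37 ± 0.63, with -4.84 after p300 depletion and -3.88 to -3.47 on the other 5 arrays, so that p300 depletion was the low one. ID3 differed by 1.31 ± 0.30 and ID2 by 0.76 ± 0.32. The inhibitors SMAD7 and SMAD6 differed by 0.82 ± 0.31 and 0.66 ± 0.31, and NOG, an extracellular BMP antagonist, by 0.80 ± 0.34. INHBA, which encodes the activin βA chain and was not on the list, differed by 2.27 ± 0.45, with -3.52 after p300 depletion and -2.37 to -1.25 elsewhere. On the list the p300 array was the lowest of 6 for 11 of 16 genes and the BRG1 array the highest for 11. The counts were 8 to 9 higher and 0 lower under the other treatments of the signals. In Ls174T cells the median was 0.002, with 2 genes higher and 1 lower.

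HOX genes, which encode the transcription factors of body axis patterning, were expressed in these cells from all 4 clusters. Of 28 measured genes 14 were higher and 0 lower past 1.5-fold, against 8.26% and 10.0% of all genes, with a median of 0.64. HOXB5 led with 2.07 ± 0.35, reading 1.33 and 1.25 in the si-control cultures, 0.66 and 0.95 after MLLT10 and DOT1L depletion, 2.06 with BRG1 depleted, and -0.02 with p300 depleted. HOXC9 (1.23 ± 0.36), HOXB6 (1.16 ± 0.53), and HOXA9 (1.14 ± 0.86) followed. The BRG1 array was the highest of 6 for 22 of the 28 genes. The list depends on the treatment of the signals. The sample channel alone gave 18 higher and 2 lower, with HOXA7 turned from 0.83 to -0.84, and normexp with loess gave 7 higher and 8 lower with a median of -0.08. Replacing outlying backgrounds before normexp gave 15 higher and 0 lower. In Ls174T cells, where 20 of the genes could be compared, 0 were higher and 1 lower.

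**Figure D3:**
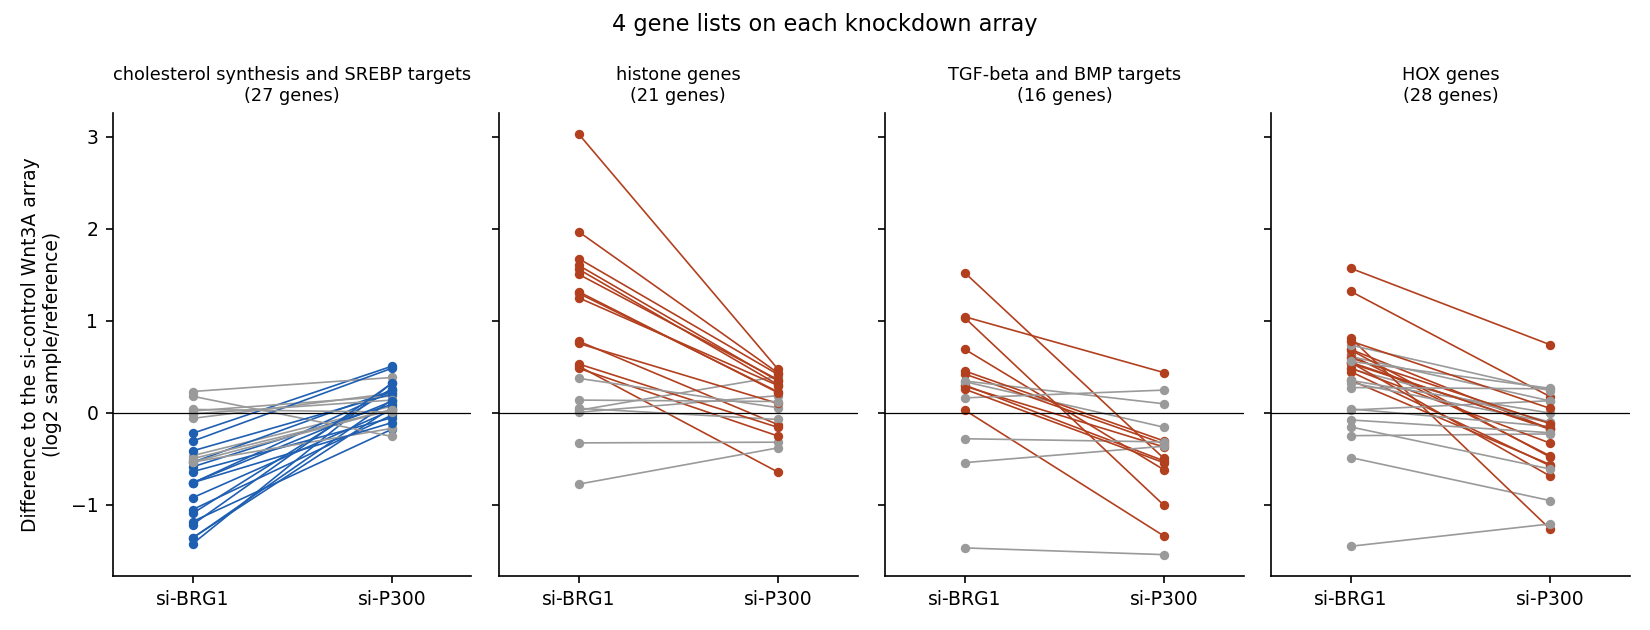
Difference of the BRG1 and the p300 array to the shared si-control Wnt3A array (y axis, log2) for the genes of 4 lists, with 1 line per gene, red or blue where the BRG1 and p300 arrays differ past 1.5-fold and gray otherwise. The cholesterol genes lie mostly below 0 after BRG1 depletion (median -0.54) and the histone genes mostly above it (median 0.76), while the TGF-β and BMP targets lie mostly above 0 after BRG1 and below 0 after p300 depletion (medians 0.32 and -0.37).

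Targets of YAP and TEAD, effectors of the Hippo pathway, had 6 of 16 genes higher and 0 lower (median 0.19). For this list and all those that follow, the shares of all genes are again 8.26% higher and 10.0% lower. AJUBA, a LIM domain inhibitor of the pathway, differed by 1.32 ± 0.34, with -1.90 after p300 depletion, -0.58 after BRG1 depletion, and -1.20 to -1.15 on the other 4 arrays. DLC1, NUAK2, and AMOTL2 differed by 0.86, 0.84, and 0.80. The canonical targets CCN1 and CCN2 differed by -0.06 and 0.57, within 1.5-fold.

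Targets of p53 had 6 of 20 genes higher and 3 lower (median 0.36). GADD45A, a stress gene that inhibits growth, differed by 1.52 ± 0.30, with 0.81 after BRG1 depletion, -0.71 after p300 depletion, and 0.11 to 0.26 elsewhere. The lower genes were TP53I3 (-0.92), BAX (-0.82), and XPC (-0.78). HEK293T cells carry the T antigen, which binds p53. Of the ATF4 and unfolded protein response genes 4 of 23 were higher and 1 lower (median 0.19). DDIT3, the transcription factor CHOP, differed by 1.51 ± 0.31 and SESN2 by 1.14 ± 0.37. For both the BRG1 array was the highest, at 1.18 and 2.29. Of the immediate early genes 3 of 23 were higher, NR4A2 (1.42), EGR2 (1.11), and the phosphatase gene DUSP1 (0.86), and 2 were lower, EGR1 (-0.84) and FOS (-0.62). With normexp and loess 8 were higher and 0 lower.

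Wnt target genes, the subject of the series, did not separate the 2 knockdowns as a list. Of 27 measured, 4 were higher and 3 lower past 1.5-fold, against 8.26% and 10.0% of all genes, and the median was -0.06. With normexp and loess 10 were higher and 1 lower. AXIN2, a negative regulator and general target of the pathway, read -0.62 with control medium, 0.46 with Wnt3A, 0.19 and 0.24 after MLLT10 and DOT1L depletion, -0.34 with BRG1 depleted, and -0.16 with p300 depleted. Both knockdowns thus lay below the other arrays with Wnt3A, and the difference between them was -0.18. MYC differed by -0.06, SP5 by -0.18, DKK1 by 0.07, and NKD1 by -0.53. The ubiquitin ligase gene RNF43, which removes Wnt receptors, differed by 1.07 ± 0.32, SOX4 by 0.83 ± 0.30, and ID2 by 0.76 ± 0.32. The lower ones were ZCCHC12 (-1.25 ± 0.76), TCF7 (-0.83 ± 0.38), and CD44 (-0.60 ± 1.22), the last within its error. Of 20 genes of the β-catenin and TCF machinery, 1 was higher, CSNK1A1 (0.63), and 2 were lower, TCF7 and LRP5 (-0.59).

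The complexes of both targets were compared as well. Of 23 SWI/SNF subunits, 2 were higher, DPF2 (0.65) and PHF10 (0.60), and 3 were lower, SMARCA4 itself, SMARCB1 (-0.81 ± 0.39), and SS18 (-0.59 ± 0.30). SMARCB1, the core subunit known as SNF5 or INI1, read 1.55 after BRG1 depletion and 2.15 to 2.36 on the other 5 arrays, and with the sample channel alone its difference was -0.42. Among 16 histone acetyltransferases and p300 partners, EP300 itself, CITED2 (0.77), which binds p300, and NCOA3 (0.65) were higher, and CITED4 (-0.78) was lower.

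Of 36 extracellular matrix genes 9 were lower and 4 higher (median -0.21), led by COL5A1 (-1.56 ± 0.58), whose BRG1 value of -4.38 lay below the -2.82 to -2.51 of the other arrays, and by TIMP1 (-1.02 ± 0.42). With normexp and loess 22 were higher and 0 lower, so the direction of this list is not settled. Of 16 serum response factor and actin genes 5 were lower and 0 higher (median -0.02). FLNA, an actin crosslinker, read -1.36 after BRG1 depletion, -0.45 after p300 depletion, and -0.14 to 0.60 elsewhere. ACTA2 was instead high after p300 depletion (0.56, against -0.92 to -0.11 on the other arrays). With normexp and loess 5 genes of this list were higher and 0 lower.

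Of 24 HIF targets 4 were lower, NDRG1 (-1.26), PFKFB4 (-1.08), PDK1 (-0.74), and HK2 (-0.61), and 2 were higher (median -0.22), but 7 were higher and 0 lower with normexp and loess. Heat shock genes and metallothioneins had 4 of 16 lower, led by MT1F (-1.33 ± 0.44), and 1 was higher, the heme oxygenase gene HMOX1, at 1.19 after BRG1 and -0.10 after p300 depletion, with a median of -0.41 that became -0.05 with normexp and loess. The metallothioneins are near-identical and may share probe signal. Neuronal genes had 6 of 23 lower and 2 higher. The sample channel alone gave 3 lower and 3 higher, and normexp with loess 5 lower and 4 higher, so the direction of this list is not settled. GAP43, a growth cone protein gene, differed by -1.05 ± 0.31 with the p300 array highest at 0.87, and STMN3 by -0.99 ± 0.32. ELAVL2 (-1.78 ± 0.86) differed by only -0.35 with the sample channel alone.

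Interferon-stimulated genes had 6 of 32 higher, such as ISG15 (1.03), and 7 lower, such as IFI44L (-1.08), with 5 of the 32 not well above background. With normexp and loess 14 were higher and 0 lower. Cell adhesion genes had 6 of 28 higher, among them ITGA1 (1.10) and PCDH10 (1.04), and 1 lower, against 19 and 3 with normexp and loess. NF-κB targets had 2 of 15 higher, TNFAIP3 (0.84) and BCL3 (0.71), and 1 lower, against 11 higher and 0 lower with normexp and loess. Among 15 Notch pathway genes 3 were higher, HEYL (1.16, or 0.33 with the sample channel alone), MAML1 (1.06), and HEY2 (0.94), and 3 were lower, HES6 (-0.78), LFNG (-0.75), and NOTCH1 (-0.61). G1 cyclins and CDK inhibitors had 3 of 18 higher, CDKN2C (1.14), CDKN2B (1.01), and RBL1 (0.78), and 1 lower, CCND3 (-0.86). Ribosome biogenesis genes had 2 of 24 higher and 1 lower. None of the 16 housekeeping genes, GAPDH (-0.37) and ACTB (-0.37) among them, passed 1.5-fold (0 higher, 0 lower). Of 9 measured HEK293T markers 2 were higher and 1 lower.

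**Figure D4:**
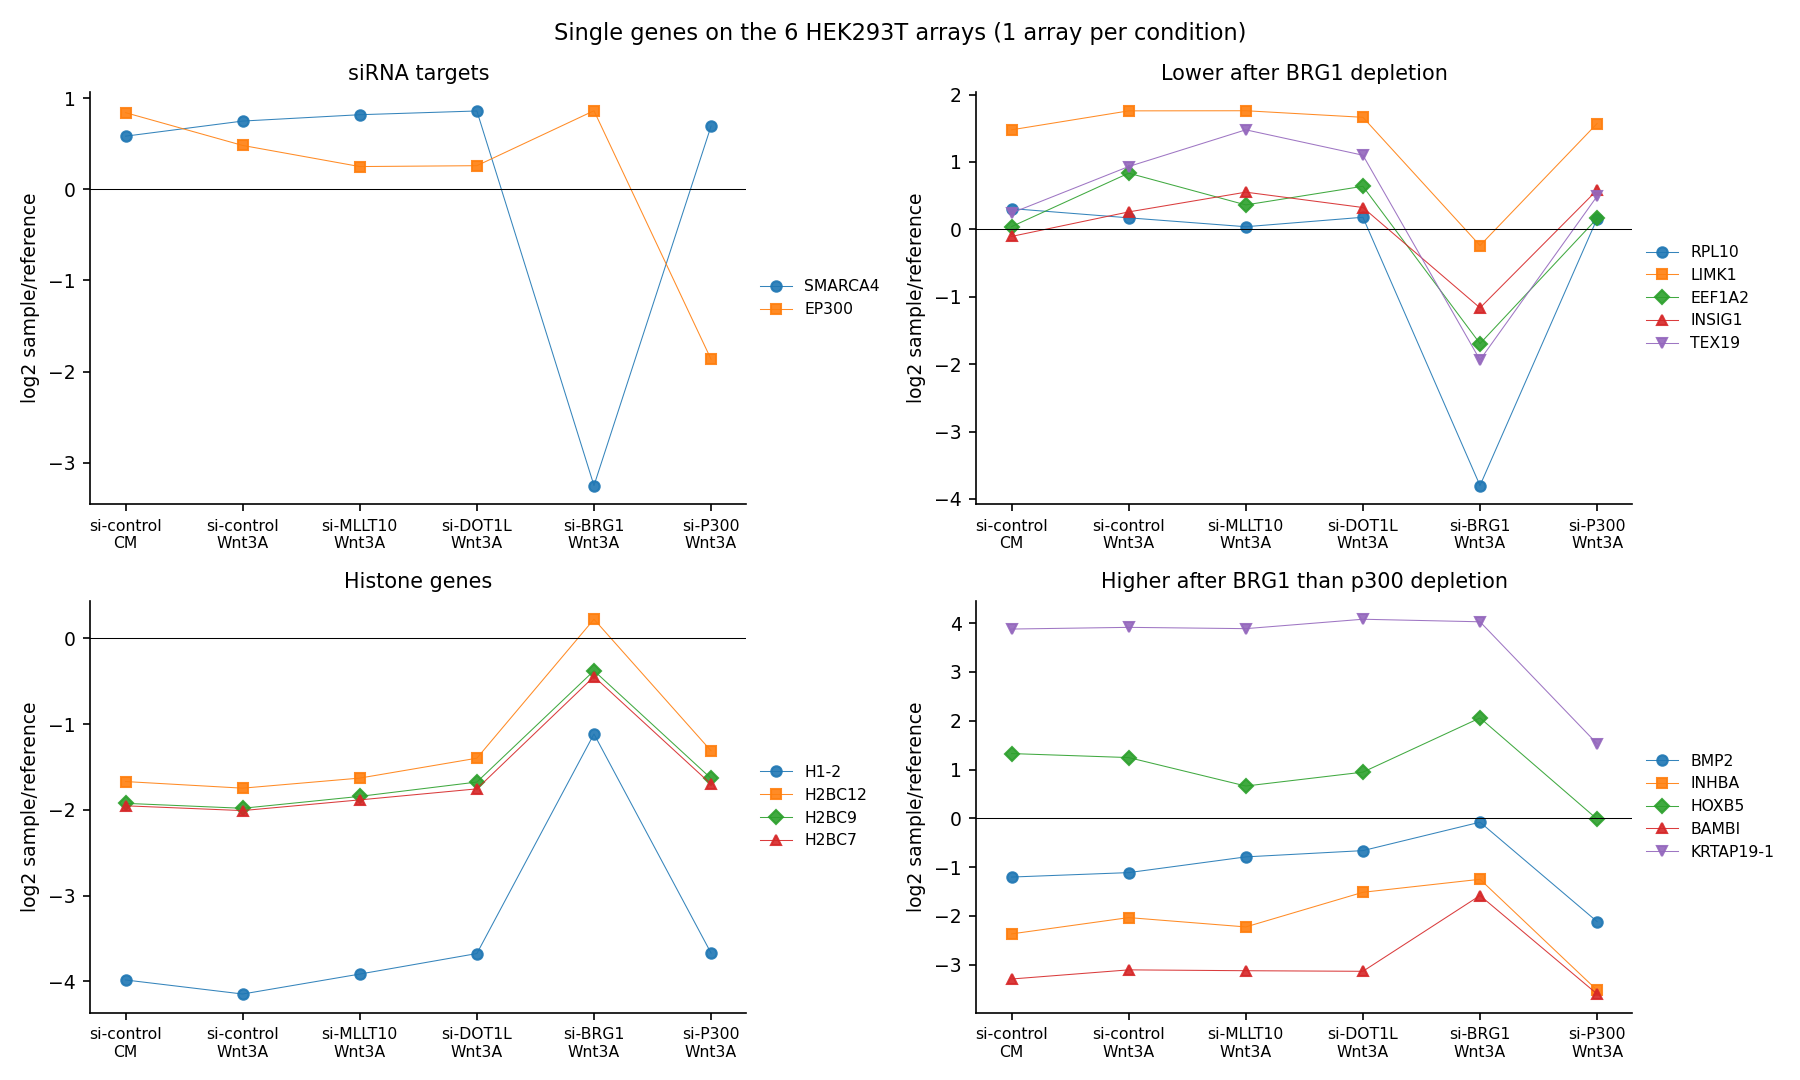
Log2 ratio of sample to reference (y axis) of 16 genes on each of the 6 HEK293T arrays (x axis), with 1 probe or gene mean per point and thin lines joining the points of a gene to guide the eye. SMARCA4, RPL10, and INSIG1 are low on the BRG1 array and H1-2 and the H2B genes high on it, while EP300 and KRTAP19-1 are low on the p300 array.

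The most extreme single genes fell into 3 patterns by array. In the first, the BRG1 array departed most. Beside RPL10 these were TEX19 (-2.43 ± 0.34), which read -1.94 after BRG1 depletion and 0.24 to 1.48 elsewhere, LIMK1 (-1.81 ± 0.32), an actin-regulating kinase gene at -0.24 against 1.48 to 1.76, and EEF1A2 (-1.86 ± 0.33), a translation elongation factor gene at -1.69 against 0.04 to 0.83. TMEM8B (-1.99) was of this kind with 1 probe but differed by only -0.34 with its other probe, and TEP1 differed by -1.91 and 0.27 with its 2 probes. JAKMIP1 (-1.87), PSTPIP1 (-2.17), and IL1R2 (-1.98) were also lowest on the BRG1 array, and highest on the p300 array. IL1R2 read -2.50 after BRG1 depletion, -0.53 after p300 depletion, and -1.89 to -1.01 elsewhere, so that both arrays departed, as in the third pattern below. With normexp and loess PSTPIP1, IL1R2, and the first probe of TEP1 turned to 0.33, 0.44, and 0.59. On the high side, LSMEM1 (1.96 ± 0.36) read -0.05 after BRG1 depletion and -2.01 to -0.91 elsewhere, and FAM209A (2.26 ± 0.34) read 0.92 against -1.34 to -0.71. With normexp and loess LSMEM1 and FAM209A moved to 1.09 and 1.07, and with outlying backgrounds replaced to 0.71 and 1.31. BDKRB2, a bradykinin receptor gene, differed by 1.94 ± 0.37 and read -0.48 against -2.42 to -0.89.

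In the second pattern the p300 array departed most. KRTAP19-1, a hair keratin-associated protein gene, had 2 probes at 2.50 ± 0.50 and 2.31 ± 0.49, and the first read 3.88 to 4.08 on 5 arrays and 1.53 after p300 depletion. With normexp and loess the KRTAP19-1 probes moved to 0.78 and 0.89, and with outlying backgrounds replaced they were at 2.21 and 2.31. PRRT2 (2.20 ± 0.43) read -3.24 after p300 depletion, against -1.69 to -1.04 elsewhere, the lowest of the 6. CD33, a sialic acid binding receptor gene, was high after p300 depletion (-1.79, against -4.47 to -3.56), with probes at -2.31 and -1.93 that turned to 0.11 and 0.60 with normexp and loess. G0S2, an inhibitor of fat breakdown, differed by -2.16 ± 0.53.

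In the third pattern both arrays departed, in opposite directions, as for BMP2, HOXB5, and INHBA. NIBAN1 (2.17 ± 0.45) read -1.27 after BRG1 depletion, -3.44 after p300 depletion, and -2.89 to -2.45 elsewhere, LURAP1L (1.94 ± 0.36) -0.37, -2.32, and -1.39 to -0.89, and PHTF2 (1.95 ± 0.32) 1.43, -0.52, and 0.50 to 0.93. The second PHTF2 probe differed by 0.67. SEMA3C (2.37 ± 0.44), a secreted guidance protein gene, read -1.01 after BRG1 depletion, -3.37 after p300 depletion, and -2.01 to -1.70 elsewhere. CACNB4 (2.48 ± 0.65) and OXGR1 (-2.10 ± 0.88) are not placed in a pattern. Their reference signal was not well above background, and the sample channel alone gave 0.79 and -0.03. CACNB4 turned to -0.76 with normexp and loess. UNC13A, a synaptic vesicle priming gene, matched none of these patterns. It differed by -3.18 ± 0.39 and was high after both MLLT10 (2.23) and p300 depletion (1.63), and between -1.55 and -0.42 on the other 4 arrays, and with normexp and loess it differed by -0.67.

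The comparison of the same knockdowns in Ls174T cells shares no array with this one. Its labels name no Wnt3A induction, so line and treatment cannot be told apart. There the brighter EP300 probe differed by only 0.50 and the other by 1.26, neither well above background on both arrays, and they lay -0.60 and -1.22 from the si-control array after p300 depletion. In that line 4.46% of 30002 features were higher and 4.32% lower. Over 26632 features measured in both lines the differences had a correlation of 0.135, and of 0.125 without the siRNA targets, across features of single arrays that are not independent. Of 2711 higher features that were measured in Ls174T cells, 312 (11.5%) were higher there too, against 4.37% of all shared features. The 312 make up 26.8% of the 1163 higher ones of Ls174T, where 2711 of all 26632 shared features were higher in HEK293T. Of 2548 lower ones, 227 (8.91%) were lower there, against 4.40% of all shared features. The 227 make up 19.4% of the 1172 lower ones of Ls174T, where 2548 of all 26632 were lower in HEK293T. In the opposite direction were 171 of the 2711 and 123 of the 2548, against 4.40% and 4.37% of all shared features. Genes past 1.5-fold the same way in both lines included SMARCA4, RPL10, SCD (first probe -1.16 in Ls174T), LIMK1 (-1.11), LURAP1L (1.18), SEMA3C (0.86), FAM209A (1.03), GADD45A (1.10), and H1-2 (0.72). BMP2, INHBA, and HOXB5 were within 1.5-fold in Ls174T cells, at -0.41, -0.16, and -0.11, with BMP2 not well above background there.

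**Figure D5:**
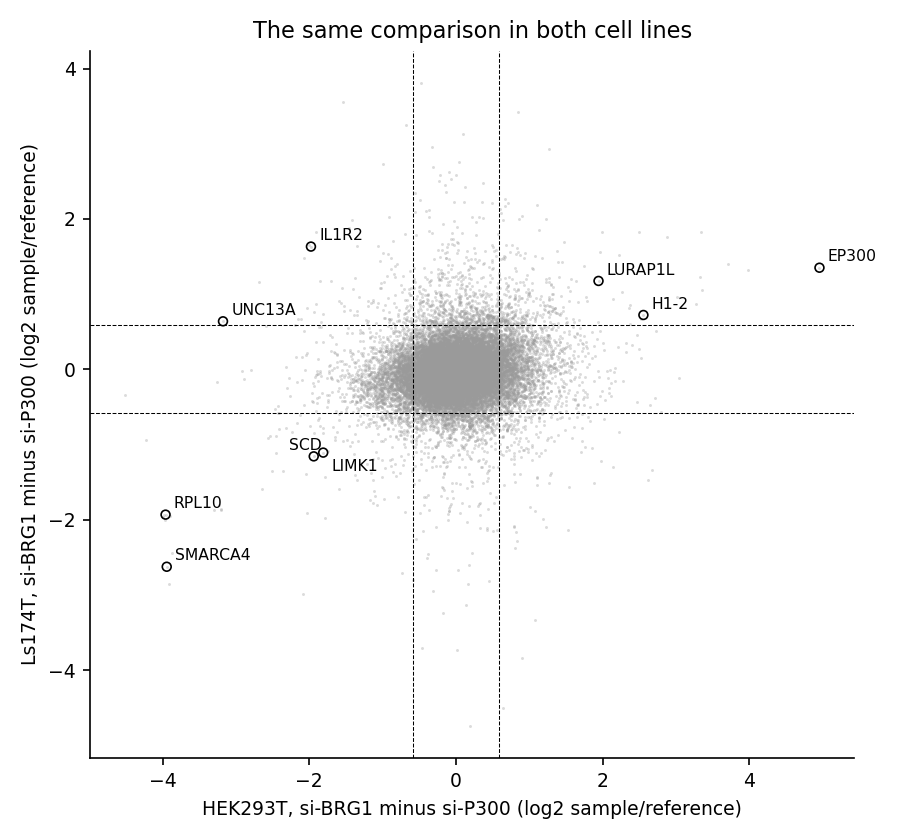
Difference between the BRG1 and p300 arrays in Ls174T cells (y axis, log2) against that in HEK293T cells (x axis, log2) for 26632 features measured in both, with dashed lines at 1.5-fold and circles on the most extreme feature of 9 named genes. SMARCA4, RPL10, SCD, and LIMK1 lie at the lower left, and IL1R2 and UNC13A at the upper left.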

How the data were processed

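HEK293T RNA in Cy3 and reference RNA in Cy5 were hybridized to Agilent 4x44K arrays. The authors read them with Feature Extraction (10.5.1.1 in the file headers) and deposited, per feature, background-subtracted and dye-normalized intensities, flags, the log10 ratio of Cy5 to Cy3, and its program error. The deposited table of log10 values is identical to these ratios for this pair. They were put on the log2 scale with the sign changed, to give sample over reference, without further normalization. Of 28546 noncontrol features with an NM or NR accession, 96.7% received a symbol through a RefSeq table.

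A threshold of 1.5-fold was used, and no test was made because each condition has 1 array. The number of arrays limits the precision. Named genes are both targets, the 15 genes with the largest difference in each direction with a sample signal well above background on both arrays, 5 bounds in each direction, and the most extreme list members. Further list members were named for their known roles after their values were seen. Some list members are counted but not reported by name here. The members and gene lists were chosen with earlier results of these data known. Alternatives were normexp (offset 50) with loess in limma 3.58.1, the sample channel alone scaled to its 75th percentile, centering, other filters, and other thresholds. The calling steps were tested on simulated data. Python 3.11.15 and R 4.3.3 were used.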

Additional observations from a re-analysis of the deposited data

Results flagged for a closer look

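IL1R2, the decoy receptor for interleukin-1, and UNC13A stood out because the same comparison went opposite ways past 1.5-fold in the 2 cell lines. IL1R2 differed by -1.98 in HEK293T cells and by 1.63 in Ls174T cells. UNC13A differed by -3.18 in HEK293T cells and by 0.64 in Ls174T cells. Each value rests on 1 array per knockdown, and the difference between the lines was not tested. Only the HEK293T arrays are labeled as induced with Wnt3A. In HEK293T cells IL1R2 turned to 0.44 and UNC13A moved to -0.67 with normexp and loess.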

How the results depend on the processing

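With 1 array per condition no array could be left out. No paired analysis was possible because each group holds 1 sample and the labels number no replicates across groups. The reported counts are 2888 higher and 2644 lower features. Requiring both channels above 2-fold background gave 1855 higher ones, no filter on dim features gave 6065 higher and 5331 lower, and a 2-fold threshold gave 814 and 739. Normexp with loess gave 5834 higher ones, moved the median difference to 0.12 from -0.003, and raised the share of higher features among the called from 52.2% to 73.3%. Replacing the background of spots marked as background outliers by the array median before normexp, an alternative chosen after seeing the data, gave 1805 higher and 1410 lower, and raised the correlation with the reported differences over features from 0.406 to 0.864. All other planned settings left both counts within 1.5 times. Of 46 probes of named genes, 6 turned with normexp and loess: CACNB4 to -0.76, CD33 to 0.11 and 0.60, PSTPIP1 to 0.33, IL1R2 to 0.44, and TEP1 to 0.59. Another 22 moved by more than their program error, and 18 did not. TEX19 moved from -2.43 to -0.93, G0S2 from -2.16 to -0.31, and the dimmer EP300 probe from 3.70 to 0.98. None (0) turned with the sample channel alone, centering, the deposited table, or outlying backgrounds replaced. Still, 21 moved by more than their program error with outlying backgrounds replaced, and 11 with the sample channel alone. The number of arrays, and for dim probes the signal over background, limit every value.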
